A study of Homo sapiens with 14 samples.

Results

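Genes that carry a cell from G2 through mitosis were followed in 2 cancer cell lines treated with inhibitors of cell cycle kinases. The set held 58 genes of the 60683 measured, chosen by name from the known machinery of mitotic entry, the spindle, the kinetochore, chromosome condensation and cytokinesis, and each was placed in 1 of 9 roles. Earlier results of these data were known when the set was chosen. A549 is a lung cancer cell line and SUM159 is a triple-negative breast cancer cell line. A549 cells were untreated, treated for 10 days with 2 µM palbociclib, with 0.5 µM indisulam or with both drugs at these doses (the combination), or treated for 7 days with 0.5 µM PF-06873600. SUM159 cells were untreated or treated for 7 days with 0.5 µM PF-06873600. Palbociclib inhibits CDK4 and CDK6, and PF-06873600 inhibits CDK2 as well as CDK4 and CDK6. The paper states that PF-06873600 inhibits CDK1 too, and CDK1 is a member of this set. Indisulam is a molecular glue that leads to degradation of the splicing factor RBM39. It was used in the study to lower CDK2 activity indirectly. Each of the 7 groups had 2 libraries of polyadenylated RNA, 14 in all, which the design text calls technical duplicates, so the p-values measure only the spread between such duplicates. The sources used here do not say when untreated cells were harvested, so treatment and time in culture cannot be told apart.

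Entry into mitosis is driven by CDK1 bound to cyclin A or cyclin B, which the CDC25 phosphatases switch on. Aurora and Polo-like kinases then build the spindle, kinetochores tie each chromosome to it, and the checkpoint proteins hold back the anaphase-promoting complex until every kinetochore is attached. The genes of this machinery are transcribed mainly in G2 and M, under the MuvB complex with B-MYB and FOXM1, and are held down by the DREAM complex in cells that have left the cycle. In bulk RNA, fewer cells in G2 and M and less of these RNAs per cell cannot be told apart.

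Promoters of many such genes carry a short element called the CHR (cell cycle genes homology region), which MuvB complexes bind close to the transcription start, often downstream of CCAAT boxes bound by NF-Y. To show what the members share beyond their names, promoters of 300 bases (250 before and 50 after the start, RefSeq, GRCh38.p14) were searched on both strands. The letters were those of the CHR, TTTGAA, of a variant, TTCGAA, and CCAAT. Other forms of the CHR were not searched, so a promoter without a match is not shown to lack the element. Of the 58 members, 48 had an entry, with 61 promoters. TTTGAA was found in 55.74% of these 61 promoters and in 15.16% of all 35116 promoters. CCAAT was found in 70.49% of member promoters and 34.61% of all, and the CHR or its variant together with CCAAT in 47.54% and 6.38%. A search for the E2F-like letters TTCCCGC, or TTGGCGC, or TTCGCGC, found 24.59% against 11.03%. Among the 16794 promoters of genes tested in A549, TTTGAA was in 10.81% and CCAAT in 34.36%. The CHR or its variant together with CCAAT was in 4.82% of these, and the E2F-like letters in 15.61%.

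The 100 bases before the start are shown for 8 members, written 5′ to 3′ on the gene's own strand, with CHR and CCAAT matches on either strand in capitals; positions count back from -1, the base before the start. CCNB2 (cyclin B2), HMMR (a spindle pole protein) and PLK1 (Polo-like kinase 1), together with the centromeric histone CENPA, are shown because their levels fell more than 2-fold with PF-06873600 in A549, and each holds the CHR, in CCNB2 and PLK1 with its first base at -29.
CCNB2 (chr15:59105046-59105145, plus strand): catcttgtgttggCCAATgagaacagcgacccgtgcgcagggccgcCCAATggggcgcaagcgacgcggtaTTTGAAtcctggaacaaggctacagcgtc
HMMR (chr5:163460532-163460631, plus strand): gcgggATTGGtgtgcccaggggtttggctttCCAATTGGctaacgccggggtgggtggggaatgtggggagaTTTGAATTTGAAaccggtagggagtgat
PLK1 (chr16:23678789-23678888, plus strand): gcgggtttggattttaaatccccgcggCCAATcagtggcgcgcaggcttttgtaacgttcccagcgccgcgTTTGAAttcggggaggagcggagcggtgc
CENPA (chr2:26785956-26786055, plus strand): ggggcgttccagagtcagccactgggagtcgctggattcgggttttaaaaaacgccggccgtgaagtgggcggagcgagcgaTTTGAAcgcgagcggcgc

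The other 4 stretches belong to members that rose with PF-06873600 in A549 and were chosen because no CHR match lies in these 100 bases. CENPU and CENPK encode subunits of the inner kinetochore, DSN1 a subunit of the MIS12 complex, and MELK a kinase of proliferating cells.
CENPU (chr4:184734097-184734196, minus strand): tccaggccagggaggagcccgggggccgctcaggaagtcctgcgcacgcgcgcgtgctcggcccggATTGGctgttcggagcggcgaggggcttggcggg
CENPK (chr5:65563169-65563268, minus strand): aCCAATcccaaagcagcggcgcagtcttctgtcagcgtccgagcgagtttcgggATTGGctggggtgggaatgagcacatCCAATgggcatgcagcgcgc
MELK (chr9:36572795-36572894, plus strand): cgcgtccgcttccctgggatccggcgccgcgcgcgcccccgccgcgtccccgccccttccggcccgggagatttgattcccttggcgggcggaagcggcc
DSN1 (chr20:36773764-36773863, minus strand): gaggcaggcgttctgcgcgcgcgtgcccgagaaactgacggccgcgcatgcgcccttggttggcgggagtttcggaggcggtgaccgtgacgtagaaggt
These 8 were picked both for their values and for holding or lacking the element, so the contrast between the sets of 4 was made by the choice. Members outside it go the other way: SMC2 and CDC25B also rose, and SMC2 holds the CHR and CDC25B its variant in 1 of their promoters, while PTTG1 and NEK2 fell with log2 fold changes of -1.75 and -1.53 and hold neither in any promoter searched.

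Each library held between 13060374 and 21149256 reads counted on genes, and 3 counts, below which a level was not read, correspond to 0.142 to 0.230 CPM (the usual count unit, scaled by the library total). Duplicates correlated at 0.994 to 0.996 (Pearson, log2 CPM across genes, which are not independent replicates). They were not equally close by chi-square/df, which is larger where duplicates differ more. This was 9.57 in untreated A549 and 9.05 in untreated SUM159. In treated A549 it was 5.04 with palbociclib, 3.08 with indisulam, 2.22 with the combination and 1.61 with PF-06873600. In treated SUM159 it was 2.29. The untreated groups, the reference of most comparisons, were thus the least alike by this measure. KRT8 and KRT18 were above 1900 CPM in every A549 library. CDH1 was at 93.1 to 172 CPM in A549 and at most 0.818 CPM in SUM159. ESR1 and PGR were at most 0.662 CPM in SUM159, while ERBB2 was at 118 to 130 CPM there and 109 to 166 CPM in A549. KRT8 still had 4445 to 7172 counts in SUM159. VIM had 9367 to 27075 counts in A549 and 61738 to 76348 in SUM159, and FN1 22485 to 32508 and 45829 to 291745. CDKN2A (p16INK4A) and CDKN2B had 0 counts in A549 and at most 3 and 1 in SUM159. MTAP had at most 5 counts in A549 and 0 in SUM159. The paper reports a rise of p16INK4A protein in SUM159 with the combination, a treatment for which there is no SUM159 library here. It describes A549 as p16 null. Leukocyte markers (CD3E, at 0 in all 14 libraries, with CD14 and PTPRC) summed to 4.2 to 12 CPM in A549, 10.1 to 10.8 CPM in untreated SUM159 and 21.8 to 23.6 CPM in treated SUM159. Endothelial markers (PECAM1, VWF and CDH5) summed to 0.536 to 1.6 CPM in A549, 11 to 11.6 CPM in untreated SUM159 and 26.9 to 29.0 CPM in treated SUM159, and the hepatocyte markers ALB and APOA1 to at most 0.742 CPM. The 3 fibroblast markers (COL1A1, PDGFRA, PDGFRB) summed to 2.04 to 2.13 CPM in untreated A549, 74.3 to 74.4 CPM with the combination, 1680 to 1770 CPM in untreated SUM159 and 3450 to 3580 CPM in treated SUM159, and the part of all these markers in the results was not tested.

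All 58 members had counts, but NUSAP1, a microtubule-binding spindle protein, had too few to be tested, at most 0.488 CPM in any library. Its exons overlap on the same strand with those of a second annotated protein-coding gene, ENSG00000285920, which had 0 counts everywhere. PRC1, which bundles the microtubules of the central spindle, was tested at only 0.496 to 6.39 CPM, and it overlaps in the same way with ENSG00000284946, which had 13 to 156 counts per library. Both values are therefore uncertain. The strand setting used in counting is not stated, and exons of CCNA2, CDC25C, FOXM1, SGO1, SGO2, CENPN, CENPU, NUF2, SPC24, PLK1, HMMR, CKAP2L, ANLN, NCAPG, NCAPD2 and SMC4 overlap a gene on the other strand. Exons of BUB1B, CENPA and CENPN overlap another gene on the same strand by a smaller part of their length. The following counts cover the other 57 members.

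The members took 0.281% and 0.301% of all counts in the untreated A549 libraries. The share was 0.285% and 0.284% with palbociclib and 0.272% and 0.280% with indisulam. It was 0.0977% and 0.0994% with the combination and 0.203% and 0.208% with PF-06873600. In SUM159 the share was 0.881% and 0.892% in untreated cells and 0.357% and 0.355% with PF-06873600. The combination and PF-06873600 libraries lay below every untreated library of their line, whereas the palbociclib and indisulam libraries lay within or just under the untreated range.

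**Figure D1:**
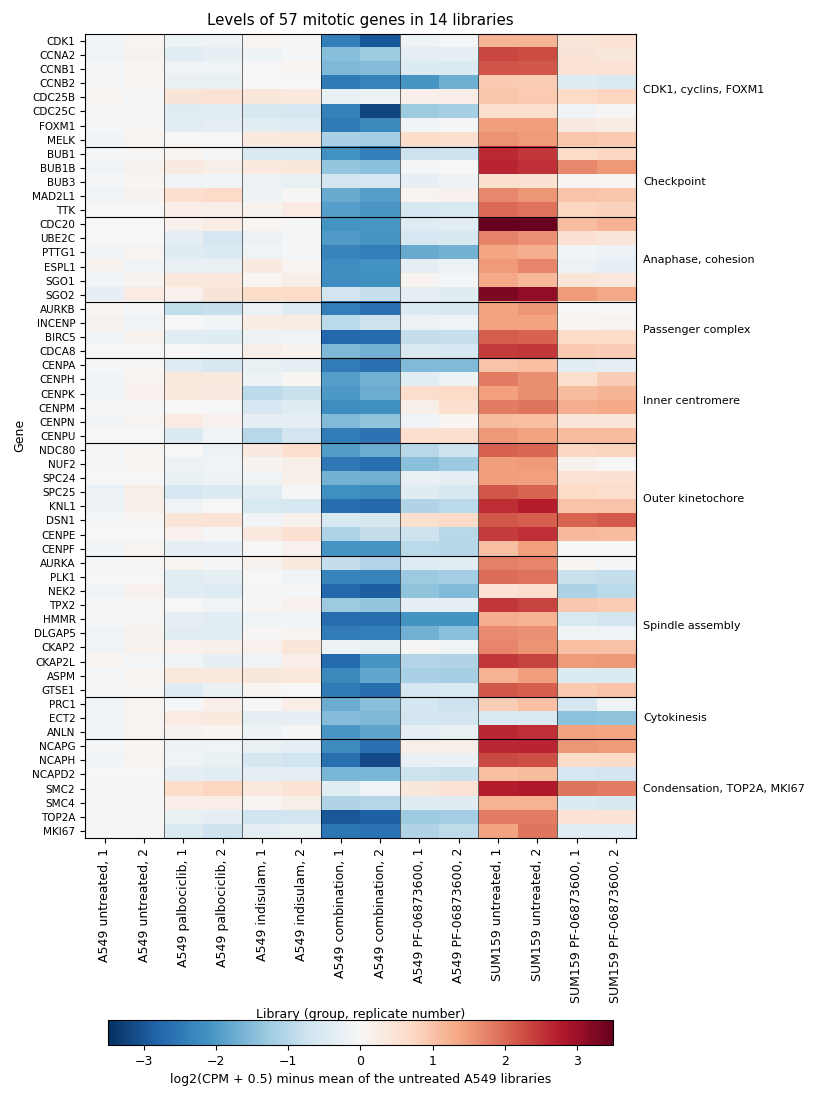
Levels of the 57 tested members (rows, grouped by role) in the 14 libraries (columns), as log2(CPM + 0.5) minus the mean of the untreated A549 libraries. Blue is lower and red is higher than untreated A549; the 2 combination columns are the bluest and the 2 untreated SUM159 columns the reddest for most genes.

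Per kilobase of annotated exon, the highest levels in untreated A549 were those of ECT2, an exchange factor for RhoA in cytokinesis, at 50.1 CPM per kilobase, and of the phosphatase CDC25B at 46.9, and cyclin B1 (CCNB1) was at 35.4. In untreated SUM159 the highest were CDC20, the activator of the anaphase-promoting complex, at 176 CPM per kilobase, and CCNB1 at 162. With the combination, CDC25B stood highest at 40.4 CPM per kilobase, above ECT2 at 17.0.

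With palbociclib alone, 33 of the 57 mitotic genes tested did not pass the test in A549. Of the others, 16 fell and 8 rose, against a background of 7.40% of all 15780 tested genes called lower and 8.30% called higher (edgeR quasi-likelihood test, Benjamini-Hochberg adjusted p, threshold 0.05). The median log2 fold change of the members was -0.12, against -0.01 over all genes tested. Aurora B (AURKB), the kinase of the chromosomal passenger complex, had the lowest fold change: it was at 23.1 and 20.7 CPM in the untreated libraries and 11.8 and 12.3 CPM with palbociclib, a log2 fold change of -0.86 ± 0.12 (SE, n = 2 per group) with adjusted p = 0.000182. The groups did not overlap.

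MKI67, the proliferation marker that coats mitotic chromosomes, was at 172 and 182 CPM in untreated cells and 123 and 107 CPM with palbociclib (-0.62 ± 0.08, adjusted p = 7.91e-05). FOXM1, the transcription factor of G2/M genes, was at 103 and 107 CPM and 81.6 and 83.8 CPM (-0.35 ± 0.07, adjusted p = 0.0028). Both were lower in each treated library than in each untreated library. The other members that fell included PLK1, BIRC5 (survivin), the ubiquitin-conjugating enzyme UBE2C, the securin PTTG1, CENPA and TOP2A, with log2 fold changes between -0.52 and -0.28. CDK1 itself was at 53.2 and 60.9 CPM and 51.4 and 52.5 CPM, a difference that did not pass the test (adjusted p = 0.435).

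The 8 that rose were CDC25B, MAD2L1, SGO1, DSN1, ASPM, ECT2, SMC2 and SMC4. SMC2, an ATPase of condensin, had the highest fold change, with 24.6 and 26.1 CPM untreated and 39.6 and 43.1 CPM treated (0.71 ± 0.10, adjusted p = 0.000176). MAD2L1, the checkpoint protein MAD2, went from 24.9 and 29.2 CPM to 41 and 42.8 CPM (0.63 ± 0.10). CDC25B went from 192 and 174 CPM to 249 and 261 CPM (0.48 ± 0.06). The treated libraries were above the untreated ones for all 3. These counts rested on single libraries: without palbociclib replicate 2, 7 members fell and 3 rose, without palbociclib replicate 1, 5 rose, and with only the compared groups in the model 6 fell and 4 rose.

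Indisulam alone changed a similar number of members, 17 lower and 10 higher, against a background of 17.5% of all genes lower and 28.0% higher, with a member median of 0.00 and an all-gene median of 0.08. With TMM scaling 19 members fell and 8 rose, and the calls over all genes moved from 61.6% to 50.4% higher. Without indisulam replicate 2, 11 members fell and 6 rose. Of the 6 inner centromere genes 5 fell, and of the 7 condensation genes 5 fell and 1 rose. CENPK had the lowest fold change, with 12.1 and 15.1 CPM in untreated libraries and 6.98 and 7.73 CPM with indisulam (-0.89 ± 0.14, adjusted p = 0.000121). CENPU, its partner in the constitutive centromere network, went from 10.6 and 10.8 CPM to 5.18 and 6.67 CPM (-0.85 ± 0.16, adjusted p = 0.000616). For both, each indisulam library lay below each untreated library.

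Topoisomerase II alpha (TOP2A), which untangles sister chromatids, was at 202 and 216 CPM untreated and 130 and 132 CPM with indisulam (-0.68 ± 0.06, adjusted p = 3.46e-07). KNL1, the kinetochore scaffold for the checkpoint, went from 14.8 and 19.1 CPM to 11.5 and 10.9 CPM (-0.60 ± 0.13), and the checkpoint kinase BUB1 from 24.6 and 26.5 CPM to 17.8 and 18.3 CPM (-0.50 ± 0.10). In each the groups were separate. SGO2, which protects centromeric cohesion, had the highest fold change (0.67 ± 0.17, adjusted p = 0.00543), but its untreated duplicates differed, at 6.25 and 9.47 CPM, beside 12.4 and 12.7 CPM with indisulam. Cyclin B1 was at 81.8 and 90.7 CPM untreated and 86.9 and 90.3 CPM with indisulam (adjusted p = 0.664), and PLK1 at 74.9 and 72.7 and 72.6 and 69.6 CPM (adjusted p = 0.523). Neither passed the test.

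The combination lowered nearly all members tested. Of 57 members, 56 fell and 0 rose, against a background of 30.0% of all genes lower and 35.1% higher, and the median log2 fold change was -2.12 (4.35-fold lower), with an all-gene median of 0.05. With TMM the share of higher among all genes called moved from 53.9% to 47.6%. At an unadjusted p under 0.05 and with DESeq2 the number that rose was 0 as well, and DESeq2 called 55 lower. The fall was larger than 2-fold in 48 members and larger than 4-fold in 34. Members of all 9 roles fell, with medians from -1.92 for the 5 checkpoint genes to -2.45 for the 10 spindle assembly genes and -2.56 for the 7 condensation genes.

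**Figure D2:**
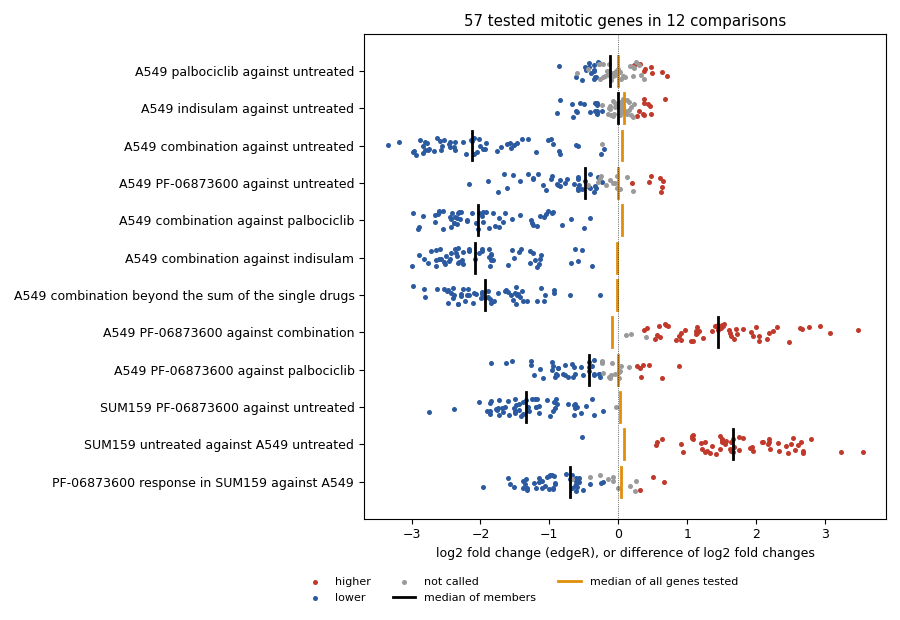
Log2 fold changes of the 57 tested members (points) in the 12 comparisons, or differences of log2 fold changes for the rows named beyond the sum and PF-06873600 response. Red and blue points passed the test as higher and lower, grey points did not; black bars are medians of the members and orange bars medians of all genes tested. All members lie below 0 with the combination, where the median is -2.12, and on both sides of 0 with each drug alone.

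Among the genes of mitotic entry, CDK1 (chr10:60778331-60794852 on hg38) was at 10.4 and 6.82 CPM with the combination, against 53.2 and 60.9 CPM in untreated cells, a 6.69-fold fall (-2.74 ± 0.13, adjusted p = 1.77e-10). The combination duplicates of CDK1 differed from each other, and both lay far below every other A549 library. CCNB1 was at 28.4 and 29.8 CPM, 2.96-fold lower (-1.57 ± 0.07). Cyclin A2 (CCNA2) fell less, from 30.2 and 35.8 CPM to 11.4 and 13.6 CPM (-1.39 ± 0.11). FOXM1 went from 103 and 107 CPM to 18.6 and 21.5 CPM (-2.39 ± 0.08, adjusted p = 2.72e-12). CDC25C, the phosphatase that activates CDK1 at entry, had the lowest fold change (-3.34 ± 0.26, adjusted p = 3.7e-08), at 1.21 and 0.451 CPM against 8.02 and 8.6 CPM, the lowest library resting on 7 counts.

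The spindle and its kinases followed the same pattern. PLK1 was at 14.2 and 14.3 CPM with the combination, against 74.9 and 72.7 CPM untreated (-2.37 ± 0.08, 5.18-fold). HMMR was at 4.96 and 5.02 CPM against 32.7 and 35.2 CPM (-2.76 ± 0.11, 6.79-fold). TPX2, which activates Aurora A on the spindle, fell less, from 64.8 and 69.1 CPM to 27.7 and 26.1 CPM (-1.32 ± 0.08), as did Aurora A itself (AURKA), from 42.9 and 45.5 CPM to 24.5 and 21.3 CPM (-0.95 ± 0.10). For all of these genes the groups were separate.

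At the kinetochore and centromere, KNL1 was at 2.27 and 2.06 CPM against 14.8 and 19.1 CPM (-2.97 ± 0.17, 7.84-fold), and NDC80, the microtubule-binding subunit, at 2.34 and 2.83 CPM against 10.1 and 11.1 CPM (-2.03 ± 0.18). CENPU was at 1.56 and 1.35 CPM against 10.6 and 10.8 CPM (-2.88 ± 0.21, 7.34-fold), and CENPA at 1.84 and 1.61 CPM against 11.9 and 12.7 CPM (-2.83 ± 0.16, 7.11-fold). In the passenger complex, BIRC5 went from 52.3 and 62.5 CPM to 8.15 and 8.3 CPM (-2.80 ± 0.10) and AURKB from 23.1 and 20.7 CPM to 3.69 and 3.15 CPM (-2.68 ± 0.14), while INCENP, the scaffold of the same complex, fell only to 21.8 and 24.7 CPM from 45.9 and 38.6 CPM (-0.86 ± 0.10). All of these passed the test with no overlap between groups, and their fold changes spanned a wide range within 1 complex.

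TOP2A fell from 202 and 216 CPM to 26.4 and 28.3 CPM (-2.93 ± 0.07, 7.65-fold, adjusted p = 9.1e-14), the lowest p of the set, and MKI67 from 172 and 182 CPM to 30 and 29.3 CPM (-2.58 ± 0.09, 5.96-fold). The smallest changes were those of CDC25B, SMC2 and CKAP2. CDC25B was at 156 and 160 CPM against 192 and 174 CPM (-0.21 ± 0.06, adjusted p = 0.00752), and SMC2 at 19.2 and 23.3 CPM against 24.6 and 26.1 CPM (-0.25 ± 0.10, adjusted p = 0.0449). CKAP2, a spindle-associated protein, was the member that did not pass the test, at 30 and 28.4 CPM against 31.7 and 37.1 CPM (log2 fold change -0.24 ± 0.11, adjusted p = 0.0624). The checkpoint protein BUB3 had 92.9 and 96.4 CPM against 138 and 151 CPM (-0.61 ± 0.06). The call for CDC25B was lost without combination replicate 1.

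The combination was then compared with each drug alone, to ask what the second drug added. All 57 members were lower with the combination than with palbociclib (background 26.9% lower, 33.5% higher, with the share of higher calls moving from 55.4% to 47.3% with TMM, median -2.04) and all 57 were lower than with indisulam (background 23.9% lower, 22.0% higher, median -2.07). In both comparisons 0 members were higher, also at an unadjusted p under 0.05 and with DESeq2. CDK1 was at 51.4 and 52.5 CPM with palbociclib, 59.4 and 56.6 CPM with indisulam and 10.4 and 6.82 CPM with both.

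The sum of the log2 fold changes of the drugs given alone ranged from -1.20 for AURKB to 1.14 for SMC2, with a median of -0.16, and lay within 0.5 of 0 for 32 members. The combination lay below this sum in 57 of 57 members when the difference was tested as an interaction term, against a background of 14.5% of all genes below and 10.7% above. The count above the sum was 0, also at an unadjusted p under 0.05 and with DESeq2, which called 56 members below it. The median difference was -1.94, a further 3.83-fold. It was largest for SGO1, shugoshin 1 (-2.98 ± 0.21, adjusted p = 1.65e-07), at 8.84 and 10 CPM untreated, 12.3 and 12.3 CPM with palbociclib, 9.95 and 11 CPM with indisulam and 1.7 and 1.74 CPM with both. It was smallest for BUB3 (-0.26 ± 0.09, adjusted p = 0.0419). By role the median difference ran from -1.58 for mitotic entry to -2.25 for spindle assembly.

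**Figure D3:**
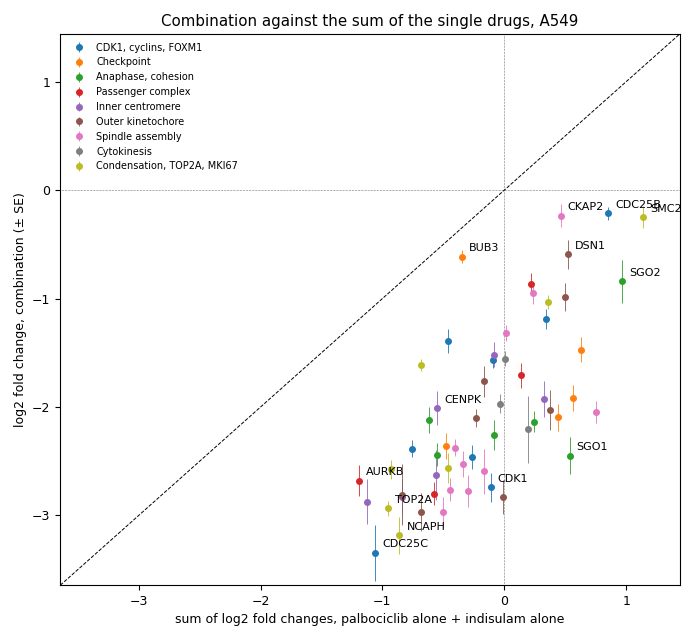
For each of the 57 members, the log2 fold change with the combination (vertical, ± SE) against the sum of the log2 fold changes with palbociclib alone and indisulam alone (horizontal, its error not drawn); the dashed line marks equality. Every member lies below the line; the sums spread from -1.20 to 1.14 and the combination values from -3.34 to -0.21.

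PF-06873600 lowered most members in A549 by less than the combination and raised a few. Of 57 members, 37 fell and 7 rose (background 27.8% lower, 28.5% higher), with a median log2 fold change of -0.49 against an all-gene median of -0.01. By role, of the 10 spindle assembly genes 9 fell (median -1.13), of the 8 outer kinetochore genes 7 fell and 1 rose (median -0.88), and of the 6 inner centromere genes 3 rose and 1 fell (median 0.21).

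HMMR (chr5:163460203-163491941) had the lowest fold change: it was at 7.5 and 7.54 CPM with PF-06873600, against 32.7 and 35.2 CPM untreated (-2.17 ± 0.10, 4.51-fold, adjusted p = 2.39e-10). PTTG1, the securin that holds separase in check, fell from 37.8 and 43.1 CPM to 11.5 and 12.6 CPM (-1.75 ± 0.10). CENPA fell from 11.9 and 12.7 CPM to 3.9 and 3.9 CPM (-1.65 ± 0.14). PLK1 fell from 74.9 and 72.7 CPM to 30.5 and 32 CPM (-1.24 ± 0.07, adjusted p = 1.69e-09) and TOP2A to 88.5 and 89.8 CPM (-1.23 ± 0.06). Each treated library lay below each untreated one for these genes.

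CDK1 was at 50.9 and 54.3 CPM with PF-06873600 and 53.2 and 60.9 CPM untreated (log2 fold change -0.11 ± 0.10, adjusted p = 0.368), and FOXM1 at 98.8 and 99.8 and 103 and 107 CPM (-0.08 ± 0.07, adjusted p = 0.307). Neither passed the test. Within the cyclins the fall was uneven: cyclin B2 (CCNB2) went from 49.1 and 54.8 CPM to 12.1 and 15.6 CPM (-1.89 ± 0.11, 3.71-fold), cyclin B1 from 81.8 and 90.7 CPM to 61.9 and 60.8 CPM (-0.49 ± 0.07, 1.41-fold), and cyclin A2 from 30.2 and 35.8 CPM to 26.4 and 26 CPM (-0.33 ± 0.10, 1.26-fold), a call lost with DESeq2 and without either PF-06873600 library or untreated replicate 2.

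The 7 members that rose were CENPU, CENPK, CENPM, DSN1, MELK, SMC2 and CDC25B. CENPU (chr4:184694085-184734130) rose from 10.6 and 10.8 CPM to 16.4 and 16 CPM (0.60 ± 0.14, adjusted p = 0.00216), CENPK from 12.1 and 15.1 CPM to 21 and 21.7 CPM (0.65 ± 0.12, adjusted p = 0.000331), DSN1 from 9.24 and 10 CPM to 14.3 and 15.6 CPM (0.64 ± 0.12, adjusted p = 0.000443) and MELK from 34.2 and 39.3 CPM to 57.7 and 55.4 CPM (0.62 ± 0.08, adjusted p = 1.02e-05). The treated libraries were above the untreated ones in all 4. CDC25B rose least, from 192 and 174 CPM to 206 and 213 CPM (0.20 ± 0.06, adjusted p = 0.0131), a call that was lost without untreated replicate 2 or PF-06873600 replicate 2.

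PF-06873600 was set beside the 10-day treatments of A549, from which it differed in time as well as in agent, so that the 2 cannot be told apart. Of 57 members, 54 were higher with PF-06873600 than with the combination (background 21.2% higher, 30.6% lower, and with TMM the share of higher among all genes called moved from 40.9% to 51.8%), 0 were lower, also at an unadjusted p under 0.05 and with DESeq2, and the median was 1.45. CENPU stood farthest apart, at 16.4 and 16 CPM with PF-06873600 and 1.56 and 1.35 CPM with the combination (3.47 ± 0.20, 11.1-fold, adjusted p = 5.23e-09), followed in the same network by CENPM (3.06 ± 0.22) and CENPK (2.66 ± 0.15). CDK1 was 6.17-fold higher (2.63 ± 0.13). HMMR and CCNB2 were much closer, at 0.59 ± 0.13 and 0.57 ± 0.13. CENPE (0.11 ± 0.14), SGO2 (0.40 ± 0.21) and CKAP2 (0.18 ± 0.11) did not pass the test (adjusted p = 0.553, 0.128 and 0.169).

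Against palbociclib, PF-06873600 had 37 members lower and 7 higher (background 21.7% lower, 23.9% higher), with a median of -0.42. HMMR was lowest, at 7.5 and 7.54 CPM against 28 and 26.4 CPM (-1.85 ± 0.10, adjusted p = 3.76e-09), and CENPU highest, at 16.4 and 16 CPM against 7.57 and 9.95 CPM (0.88 ± 0.14, adjusted p = 0.000177). AURKB, the member most lowered by palbociclib, was higher with PF-06873600, at 15.6 and 14.8 CPM against 11.8 and 12.3 CPM (0.33 ± 0.12, adjusted p = 0.0385). The number higher was 3 or 4 when any of the 4 libraries compared was left out. Palbociclib and PF-06873600 share the untreated controls, and only this direct comparison was tested.

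**Figure D4:**
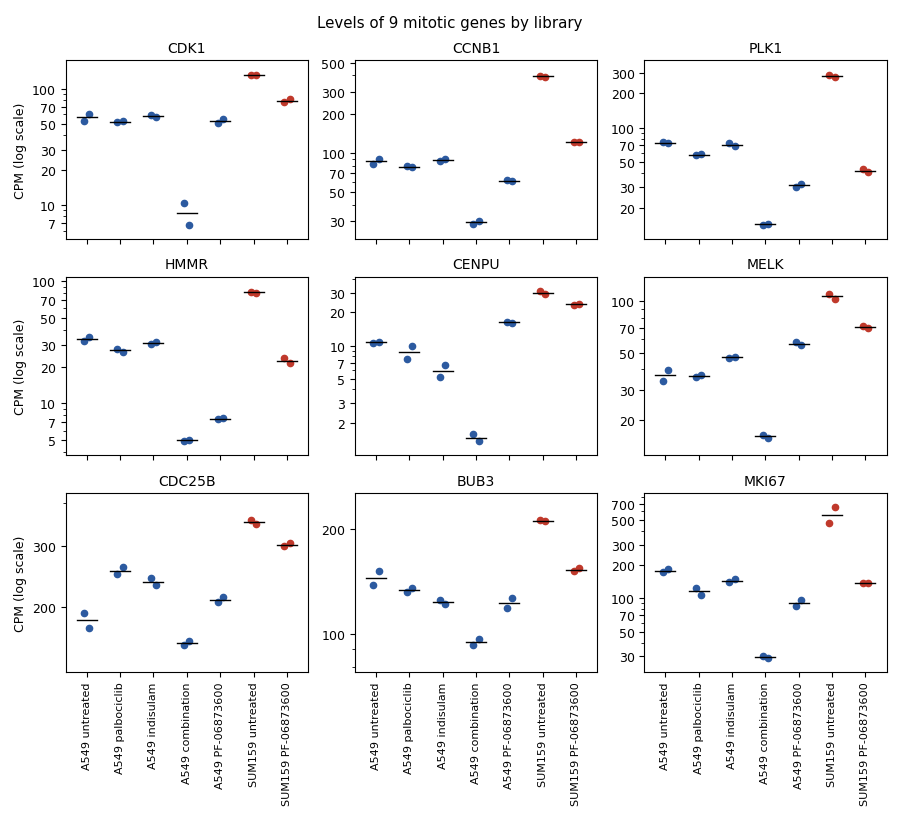
CPM (log scale) of 9 members in each library by group; blue points are A549 and red points SUM159 libraries, and black bars are the means of 2. CDK1 is low only in the combination columns among the A549 groups, HMMR is low with the combination and with PF-06873600, and CENPU and MELK rise with PF-06873600 in A549 while falling in SUM159.

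In SUM159, PF-06873600 lowered nearly every member. Of 57 members, 56 fell and 0 rose, against a background of 35.6% of 15055 tested genes lower and 38.1% higher, and the median log2 fold change was -1.33 (2.52-fold) with an all-gene median of 0.02. The count that rose was 0 at an unadjusted p under 0.05 and with DESeq2 as well. Spindle assembly genes had a median of -1.67, anaphase and cohesion genes -1.64 and condensation genes -1.64, whereas mitotic entry genes had -0.96 and inner centromere genes -0.60.

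PLK1 had the lowest fold change, at 290 and 276 CPM in untreated libraries and 43.2 and 41 CPM with PF-06873600 (-2.75 ± 0.06, 6.72-fold, adjusted p = 2.63e-14). CDC20 fell from 365 and 345 CPM to 64.5 and 71.8 CPM (-2.38 ± 0.06, 5.20-fold, adjusted p = 2.65e-13). Cyclin A2 fell from 169 and 163 CPM to 45.1 and 43.6 CPM (-1.90 ± 0.06) and separase (ESPL1), the protease that opens cohesin, from 70.7 and 83.1 CPM to 21.7 and 20.5 CPM (-1.87 ± 0.08). MKI67 fell to 137 and 138 CPM from untreated duplicates that differed, at 473 and 649 CPM (-2.03 ± 0.11). In all 5 the groups were separate.

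CDK1 fell in this line, from 130 and 131 CPM to 76.3 and 81 CPM (-0.73 ± 0.05, adjusted p = 1.51e-08), as did FOXM1, from 293 and 290 CPM to 130 and 125 CPM (-1.19 ± 0.05). CENPU fell by less than most, from 31.3 and 29.2 CPM to 23.6 and 23.7 CPM (-0.36 ± 0.08, adjusted p = 0.00102). DSN1 was the member that did not pass the test, at 45.1 and 42.5 CPM untreated and 41.3 and 44.4 CPM treated (log2 fold change -0.03 ± 0.07, adjusted p = 0.722).

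Untreated SUM159 cells held more of these RNAs than untreated A549 cells. Of 57 members, 56 were higher and 1 lower in SUM159 (background 41.9% of 17279 tested genes higher, 36.8% lower), with a median log2 difference of 1.66 against 0.08 over all genes. CDC20 differed most, at 365 and 345 CPM in SUM159 and 30.4 and 30.5 CPM in A549 (3.54 ± 0.07, 11.7-fold, adjusted p = 4.44e-19). ECT2 was the member lower in SUM159, at 190 and 192 CPM against 256 and 295 CPM (-0.53 ± 0.06, adjusted p = 2.45e-07). The lines also differ in the markers given above.

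Treated SUM159 libraries were also mostly above treated A549 libraries. With PF-06873600, 54 of 57 members were higher in both SUM159 libraries than in both A549 libraries (background 46.6% of genes higher, 42.1% lower, with no overlap), ECT2 and SMC4 were lower and ESPL1 overlapped. Set against untreated A549, 37 members were still higher in treated SUM159, 13 were lower and 7 overlapped (background 46.3% higher, 41.7% lower). CDK1 was at 76.3 and 81 CPM in treated SUM159 and 53.2 and 60.9 CPM in untreated A549, whereas PLK1 was at 43.2 and 41 CPM and 74.9 and 72.7 CPM.

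The response to PF-06873600 was tested between the lines as a difference of log2 fold changes. It was more negative in SUM159 for 44 members and less negative for 3 (background 27.2% and 25.8% of 17279 genes), with a median difference of -0.70 against 0.04 over all genes. CDC20 differed most: its fold change was -0.42 ± 0.08 in A549 and -2.38 ± 0.06 in SUM159, a difference of -1.96 ± 0.10 (adjusted p = 1.05e-11). ESPL1 had -0.26 ± 0.11 in A549, which did not pass the test, and -1.87 ± 0.08 in SUM159 (difference -1.60 ± 0.15, adjusted p = 3.83e-08). Cyclin A2 had -0.33 ± 0.10 and -1.90 ± 0.06 (difference -1.57 ± 0.12, adjusted p = 1.89e-09).

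The members that rose in A549 were part of this difference. CENPU had 0.60 ± 0.14 in A549 and -0.36 ± 0.08 in SUM159 (difference -0.95 ± 0.16, adjusted p = 5.56e-05). MELK had 0.62 ± 0.08 and -0.60 ± 0.06 (difference -1.22 ± 0.10, adjusted p = 4.15e-09). SMC2 had 0.47 ± 0.10 and -0.92 ± 0.05 (difference -1.39 ± 0.11, adjusted p = 4.16e-09). For these genes the treated libraries were above the untreated ones in A549 and below them in SUM159.

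CDC25C, CCNB2 and HMMR went the other way, with a larger fall in A549. The difference was 0.66 ± 0.23 for CDC25C (adjusted p = 0.0241), 0.50 ± 0.13 for CCNB2 (adjusted p = 0.00242) and 0.32 ± 0.12 for HMMR (adjusted p = 0.04). With DESeq2, or without untreated A549 replicate 2 or either PF-06873600 library of A549, only 1 member was called higher. TOP2A (-0.08 ± 0.08, adjusted p = 0.428) was among 10 members whose difference between lines did not pass the test.

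Across the 57 members the fold changes of the 2 lines correlated at r = 0.58 (Pearson) and rho = 0.571 (Spearman). This describes genes that share libraries and are not independent replicates. The estimate was more negative in SUM159 for 51 of 57 members.

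**Figure D5:**
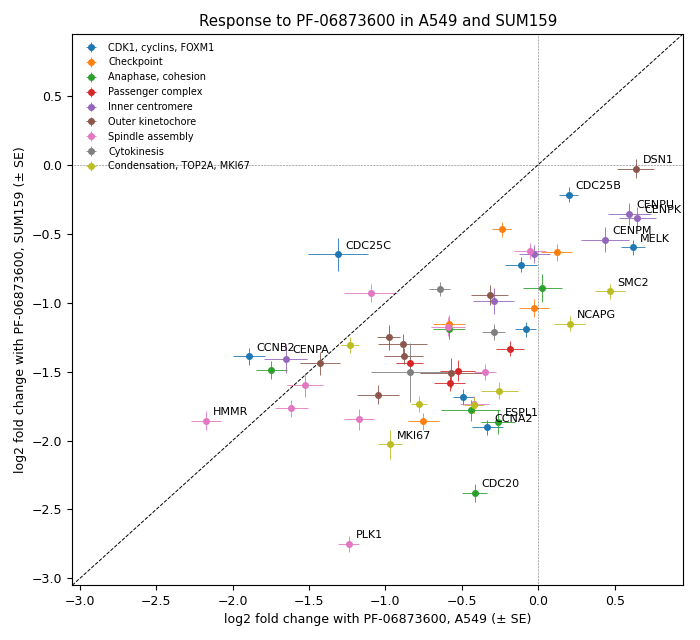
Log2 fold change with PF-06873600 in SUM159 (vertical) against A549 (horizontal) for the 57 tested members, coloured by role, with bars of ± SE; the dashed line marks equality. Of the 57 members 51 lie below the line; HMMR, CCNB2 and CDC25C lie above it, and CENPU, CENPK, MELK and DSN1 lie to the right of 0 in A549.

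Members with and without the CHR or its variant in the 300-base promoter were set side by side, with no test. A member counted as with it if any of its promoters held it. CDC25B, CDC25C, SMC2 and SMC4 were counted so, although they also have promoters without a match. With the combination the median log2 fold change was -2.26 for 33 members with it and -1.67 for 14 without it. In A549 treated with PF-06873600 the medians were -0.65 with it and -0.33 without it. In SUM159 they were -1.33 with it and -1.44 without it. The ranges of the groups overlapped widely in every comparison, from -3.34 to -0.21 with the element and -3.18 to -0.24 without it for the combination. The values -3.34 and -0.21 are those of CDC25C and CDC25B.

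Other genes of the same pathways were counted in the same way, in lists also chosen with earlier results of these data known. Of 79 further mitotic genes in 6 lists, 78 were tested in A549. With the combination 51 fell and 8 rose (65.4% and 10.3%, against a background of 30.0% and 35.1%, median -0.53). With palbociclib 5 fell and 11 rose (6.4% and 14.1%, background 7.40% and 8.30%), and with indisulam 14 fell and 9 rose (17.9% and 11.5%, background 17.5% and 28.0%), so that the shares that fell with either drug alone were near those of all genes. Of the 26 other centromere and kinetochore genes, 19 fell and 3 rose with the combination (median -0.92). Of 15 tested genes in the list of CDK1 regulators, 12 fell and 2 rose. That list also holds the checkpoint genes TRIP13, MAD2L1BP and MAD1L1 and the histone kinase HASPIN, so its counts are not about CDK1 alone. Of 13 cohesin genes 8 fell and 1 rose. All 3 condensin II genes fell, as did 4 of 6 genes of the MuvB list, and 0 rose in either list. Of 15 genes of the anaphase-promoting complex, among them its coactivator FZR1, 5 fell and 2 rose (33.3% lower, near the background, median 0.01). The combination lay below the sum of the drugs given alone for 41 of 78 (52.6%, background 14.5%) and above it for 0, with 1 of the 15 genes of the anaphase-promoting complex below it.

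MYBL2 (B-MYB), the partner of MuvB at G2/M promoters, went from 34.1 and 32.9 CPM in untreated A549 to 6.88 and 6.31 CPM with the combination (-2.35 ± 0.09, adjusted p = 2.47e-11), and rose to 83.9 and 86 CPM with PF-06873600 (1.34 ± 0.07, adjusted p = 8.62e-10). In SUM159 MYBL2 had 2321 and 2168 counts untreated and 2030 and 2367 in the larger PF-06873600 libraries. There 0 of the 6 genes of its list passed the test as higher. SPDL1 (spindly), which recruits dynein to kinetochores, rose against its list with the combination, from 25.4 and 28.1 CPM to 89.1 and 88 CPM (1.73 ± 0.07, adjusted p = 4.2e-11), and with PF-06873600 in A549 (1.47 ± 0.07). SPDL1 was higher with each drug alone too, with 374 and 421 counts untreated, 543 and 641 with palbociclib and 832 and 920 with indisulam. In SUM159 SPDL1 fell with PF-06873600, from 150 and 152 CPM to 54.9 and 52.3 CPM (-1.49 ± 0.06, adjusted p = 6.72e-12).

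With PF-06873600, 26 of 78 further genes rose in A549 and 21 fell (33.3% and 26.9%), near the background of 28.5% and 27.8%. In SUM159, 3 of 79 rose and 66 fell (3.8% and 83.5%, background 38.1% and 35.6%). There 11 of the 15 genes of the anaphase-promoting complex fell and 1 rose (73.3% and 6.7%, median -0.52). CDC25A, the phosphatase that activates CDK2 and CDK1, had the highest fold change in A549 of the 16 genes in the list of CDK1 regulators. In A549 it was at 5.3 and 6.2 CPM untreated and 16.9 and 15.6 CPM treated (1.49 ± 0.14, adjusted p = 3.51e-07). In SUM159 it was at 74.5 and 69 CPM untreated and 26.1 and 25.9 CPM treated (-1.47 ± 0.07, adjusted p = 8.29e-11). The difference between lines passed the test (-2.96 ± 0.15, adjusted p = 4.92e-12).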

How the data were processed

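Polyadenylated, stranded RNA libraries of 7 groups, 2 per group, were sequenced as single-end reads. Reads were aligned to hg38 by the authors, who deposited for each library a table of whole-number read counts, not normalized, for 60683 Ensembl genes. The 9 summary lines at the end of each table were left out. The submitters' processing notes name HISAT2 2.2.1 and HTSeq; the annotation release and the strand setting are not given in the sources used here. Reads set aside as ambiguous were 3.02% to 3.47% of a library. The floor of 3 counts covers counting error only. Symbols and exons came from GENCODE release 44 (60370 identifiers matched), and promoters from RefSeq.

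Genes were filtered with filterByExpr of edgeR 4.0.16 (R 4.3.3). Total counts served as library sizes, as in the study's methods. The quasi-likelihood F test was used with Benjamini-Hochberg adjustment over all genes tested (15780 in 10 A549 libraries, 15055 in 4 SUM159 libraries, 17279 in all 14), and standard errors are the size of the log2 fold change over the root of F. An exact permutation test was not run, since with 2 libraries a side its two-sided p has a minimum of 0.333. Named members are 37 fixed by name, the lowest and highest fold change of each comparison, and members that missed the threshold or went against the others; of further genes, those largest in their list or against its direction. The members and lists were chosen with earlier results of these data known. Replicate numbers were taken from the labels, where nothing states that libraries with the same number were handled together. The scripts were tested on simulated data. A further leukocyte marker is not reported here. Alternatives were TMM, DESeq2 1.42.0, no filter, a filter at a mean of 50 counts, a model of the compared groups alone, the replicate number as a block, and each library left out; a block with crossed palbociclib numbers was chosen after seeing the data. Figures used matplotlib 3.10.9.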

Additional observations from a re-analysis of the deposited data

Results flagged for a closer look

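The response of the mitotic genes to PF-06873600 differed between the lines by the test of the difference itself: 44 members had a more negative and 3 a less negative log2 fold change in SUM159 than in A549. Among the 3, CDC25C differed by 0.66, CCNB2 by 0.50 and HMMR by 0.32 on the log2 scale. Toward SUM159 the largest differences were -1.96 for CDC20, -1.60 for ESPL1 and -1.57 for CCNA2. Untreated SUM159 started from levels above untreated A549 for all 6 of these genes, by 0.63 ± 0.15, 0.91 ± 0.08, 1.26 ± 0.07, 3.54 ± 0.07, 1.62 ± 0.10 and 2.33 ± 0.08 in the same order, and the part of this starting level in the difference was not tested.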

How the results depend on the processing

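No named member called in the 6 comparisons with untreated cells or between the responses of the lines changed direction under the alternatives run: 2569 values kept their direction and their side of the threshold, and 110 kept the direction but missed the threshold. For palbociclib, DESeq2 called 10 members lower, and the model with only the compared groups 6 lower and 4 higher. For indisulam, the median of 0.0012 turned below 0: it was -0.078 with TMM and -0.071 with DESeq2, which called 6 higher. The combination's median was -2.20 with TMM; against palbociclib it was -2.13 with TMM and -2.09 with DESeq2, and against indisulam -2.05 with DESeq2, without a filter and with a mean of at least 50 counts. For PF-06873600 the median against the combination was 1.54 with TMM and 1.51 with DESeq2, and against palbociclib DESeq2 called 3 higher. Between untreated lines the median was 1.56 with TMM and 1.57 with DESeq2. For the difference between lines it was -0.64 with TMM, and DESeq2 called 1 higher.

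With 1 library left out, the lower and higher counts were 7 to 20 and 3 to 12 for palbociclib, 11 to 16 and 6 to 11 for indisulam, 54 to 57 and 0 for the combination, 32 to 39 and 5 to 7 for PF-06873600 in A549, 31 to 40 and 3 to 7 for PF-06873600 against palbociclib, 55 to 56 and 0 in SUM159, and 42 to 46 and 1 to 4 for the difference between lines. Medians ran from -0.18 to -0.050 for palbociclib, -0.099 to 0.054 for indisulam, -2.19 to -2.07 for the combination, -0.56 to -0.41 for PF-06873600 in A549, -2.13 to -2.02 and -2.16 to -2.02 for the combination against palbociclib and indisulam, -2.02 to -1.85 beyond the sum, 1.43 to 1.46 for PF-06873600 against the combination, -0.44 to -0.36 against palbociclib, -1.37 to -1.32 in SUM159, 1.63 to 1.75 between untreated lines and -0.84 to -0.65 for the difference between lines. Where a group was left with 1 library, that library was assumed to vary like the other groups.

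Each number marks 1 library in every group, so that any 2 groups form only 2 pairs, and the replicate numbers are not shown to pair the samples: deviations of same-numbered untreated A549 libraries correlated at 0.14 with indisulam and -0.19 with palbociclib. With the replicate block, 15 members fell and 8 rose with palbociclib, 16 and 10 with indisulam, and the median between untreated lines was 1.73; with crossed palbociclib numbers 18 fell and 10 rose, and that median was 1.73. Counts were few for CDC25C, whose lowest library held 7.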
